A study of Rattus norvegicus with 4 samples.

Results

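The genes described here are those of potassium channels and their subunits in the rat anterior pituitary. Of the 30058 genes listed in the deposited counts, 95 have a symbol that starts with Kcn, and the 68 with at least 1 UMI (a unique molecular identifier, the tag that counts 1 captured mRNA molecule) in 30 or more cells were taken as members. The rule itself uses no measured value beyond that limit, though it was set with earlier results of these data known. Of all genes, 16932 passed the same limit. The members just inside it were *Kcnj15*, found in 32 cells, and *Kcns3*, found in 38, and the genes just outside it were *Kcns2* in 27 cells and *Kcnj13* in 26. The other genes below the limit included *Kcnj10*, an inward rectifier, found in 25 cells. *Kcnk12* and *Kcnk12-2* are separate rows of 1 symbol, so reads may have been split between them and the values of both are uncertain.

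Cells were dispersed from the anterior pituitaries of postpubertal Sprague Dawley rats and profiled by droplet single-cell RNA sequencing. The female group was 1 pool of 4 pituitaries from animals 44 days old in diestrus, and the male group was 1 pool of 4 pituitaries from animals 59 days old. Each pool was run on 2 lanes, so the lanes are technical replicates, sex cannot be told apart from age and pool, and every p-value between the sexes measures only the spread between lanes. Of 7861 cells, 6850 were kept and named by marker genes as folliculostellate cells (FSC, 2317 cells), corticotrophs (C, 792), gonadotrophs (G, 237), thyrotrophs (T, 88), somatotrophs (S, 1889), lactotrophs (L, 482), leukocytes (Le, 550), endothelial cells (EC, 134) and erythrocytes (E, 361). The lanes held 18955509 to 24048021 UMIs, with medians of 7971 to 9413 per cell, and the male-specific *Eif2s3y* had 0 and 1 UMI in the female lanes and 2038 and 2100 in the male lanes. Lanes are named by their number of cells, 1868 and 1861 in females and 2047 and 2085 in males, and 4 values in a row are given in that order.

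Potassium channels let potassium leave the cell, which holds the membrane negative and ends the action potential. Endocrine pituitary cells fire spontaneously, and the calcium that enters with each action potential drives secretion, so the set of potassium channels in a cell sets when it fires and how it answers to hypothalamic factors. Tandem-pore channels (Kcnk) carry a resting leak, inward rectifiers (Kcnj) carry current near rest and include the channels opened by dopamine and somatostatin receptors, voltage-gated channels (Kcna, Kcnb, Kcnc, Kcnd, Kcnh, Kcnq) repolarise the membrane, and calcium-activated channels (Kcnma, Kcnn) couple it to calcium entry. Kcnt genes encode sodium-activated channels. The remaining members are subunits that do not form a pore alone or that alter those that do.

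The tandem-pore genes dominated the counts. The 9 Kcnk members held 12234 UMIs in the final cells, 40.4% of all UMIs of members, and *Kcnk2*, which encodes the leak channel TREK, held 6148 of them. The 9 Kcnj members followed with 3522 UMIs, led by *Kcnj6* with 1060. Among genes of voltage-gated channels, *Kcna2* had 1245 UMIs, *Kcnh2* 908 and *Kcnd3* 742. Among genes of auxiliary subunits, *Kcnip3*, a calcium-binding partner of Kcnd channels, had 1618 UMIs, and the cytoplasmic beta subunit *Kcnab2* had 263. *Kcnrg*, whose product interferes with channel assembly, had 527 UMIs, and *Kcne1l*, which RefSeq lists as a synonym of *Kcne5* and which encodes a single-span subunit, had 206. The calcium-activated families were led by *Kcnn2* (670 UMIs) and by the large-conductance channel gene *Kcnma1* (420), whose beta subunit gene *Kcnmb4* had 158. Genes of electrically silent subunits were low, with 297 UMIs for *Kcng1*, 55 for *Kcnv1*, 36 for *Kcnf1* and 34 for *Kcns3*, and the sodium-activated channel gene *Kcnt2* had 118. A UMI marks 1 end of a transcript and does not scale with its length, so these totals compare molecules counted, though capture may differ between genes. The counts were concentrated, since 6 of the 68 members (*Kcnk2*, *Kcnk1*, *Kcnk12*, *Kcnip3*, *Kcna2* and *Kcnj6*) held 47.8% of the UMIs.

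**Figure D1:**
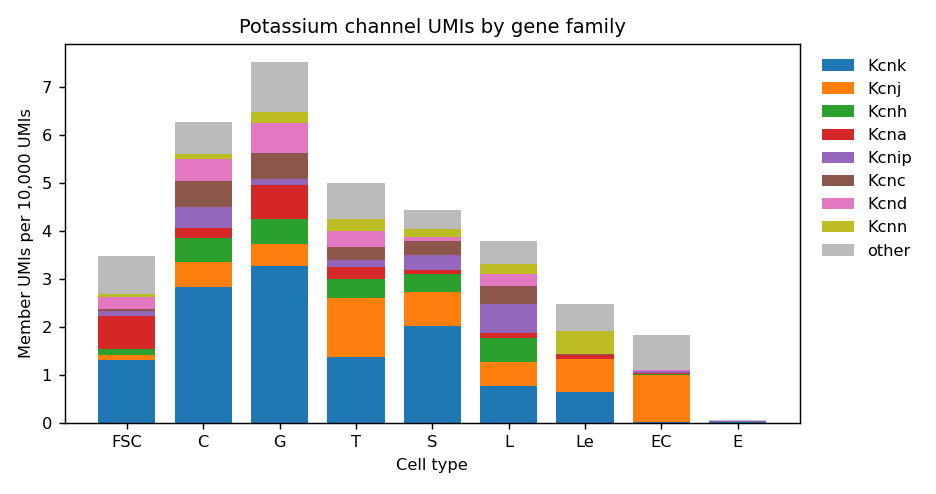
UMIs of members per 10000 UMIs of each cell type, stacked by family. The bars are sums over all cells of a type and carry no error. G reached 7.52, C 6.28 and EC 1.84, with the Kcnk family the largest share in FSC, C, G, T, S and L, and the Kcnj family in Le and EC.

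With all lanes pooled, gonadotrophs carried the most potassium channel transcripts and erythrocytes almost none. Members took 7.52 UMIs per 10000 in G, 6.28 in C, 5.0 in T, 4.43 in S, 3.79 in L, 3.48 in FSC, 2.48 in Le and 1.84 in EC. G was well above C in the male lanes only, at 10.1 and 11 against 6.37 and 6.59. In the female lanes G was at 6.51 and 5.67, C at 6.01 and 5.97 and T at 5.45 and 5.86. At 5.67, G lay below both C and T of the same lane. The number of different members with a UMI averaged 5.73 per cell in G, 4.66 in C, 4.39 in S, 4.22 in T, 4.04 in L, 2.12 in FSC, 1.31 in Le and 1.22 in EC. Depth differed between the types, with median UMIs per cell of 9937 in G, 11473 in C, 13659 in S, 10156 in T, 10207 in L, 6905 in FSC, 6482.5 in Le and 7277 in EC. With each cell thinned to 3000 UMIs they were 2.23 in G, 1.62 in C, 1.48 in T, 1.24 in S, 1.16 in L, 0.869 in FSC, 0.656 in Le and 0.396 in EC, and no cell was too shallow to thin. T thereby moved above S, and the other types kept their order. In the female lanes these thinned means were 2 and 1.56 in G, 1.50 and 1.62 in C and 1.33 and 1.79 in T. The lead of G over C and T thus did not hold in each female lane. The 361 erythrocytes, at a median of 8246 UMIs per cell, held 17 UMIs of 14 members, at most 2 of any, and serve as the measure of free RNA. Transcripts of the 7 hormone genes were 0.194% of UMIs in E, 0.376% in EC, 0.428% in Le and 0.588% in FSC. E may therefore understate free RNA in those types. The highest share of E with a UMI was 0.554%, for *Kcna2*. No UMI of a gene in a type allows up to 3, a share of 0.129% of cells in FSC, 0.159% in S, 1.27% in G, 2.24% in EC and 3.41% in T, and such limits and all intervals below cover counting error only.

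**Figure D2:**
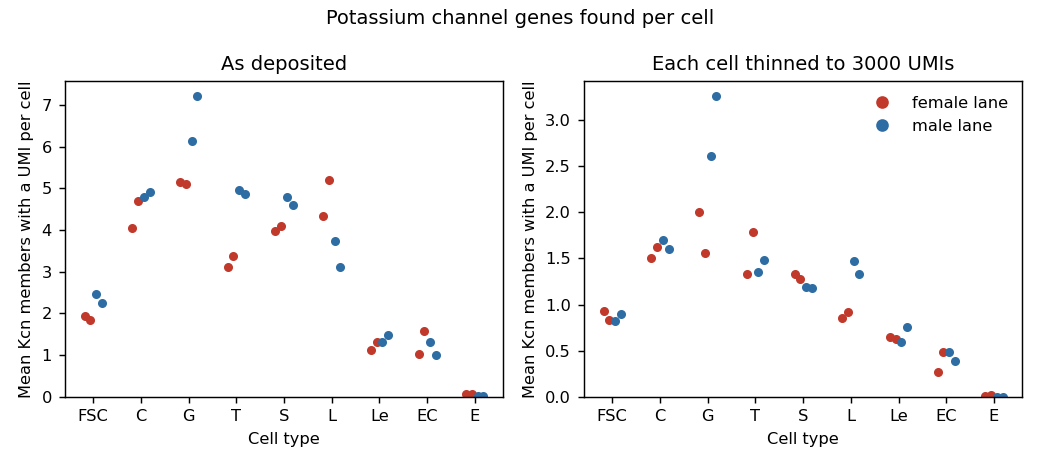
Mean number of members with at least 1 UMI per cell, by cell type and lane, in the counts as deposited and with each cell thinned to 3000 UMIs. Each point is 1 lane. After thinning, the lanes of G lie between 1.56 and 3.26 and those of EC between 0.267 and 0.486.

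In G and L the male lanes were above the female lanes. Members took 6.51, 5.67, 10.1 and 11 UMIs per 10000 in G, and 3.05, 3.38, 5.24 and 4.64 in L. Hormone transcripts fill much of these cells, and with the 7 hormone genes left out the values were 7.73, 6.98, 11.2 and 12 in G and 4.50, 4.93, 6.46 and 5.65 in L. The sexes did not overlap in either measure, but this was not particular to G and L. Nor did they overlap in C, FSC and Le, with males above, or in S and T, with females above. Members took 6.01, 5.97, 6.37 and 6.59 in C and 4.72, 4.51, 4.34 and 4.27 in S. With 2 lanes against 2 no 2-sided exact permutation test of lanes can give a p below 0.333, and only genes were tested.

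The leading channel gene differed between most types. The leading member was *Kcnk1* in FSC (22.9% of member UMIs), *Kcnk2* in C (41.6%) and S (27.9%), *Kcnk3* in G (27.7%) and T (14.0%), *Kcnip3* in L (12.9%), *Kcnj2* in Le (25.6%) and *Kcnj8* in EC (28.6%). FSC were next led by *Kcna2* (17.1%), G by the A-type channel gene *Kcnd2* (7.82%) and T by *Kcnj6* (10.5%). These ranks pool the sexes, and by sex some changed. In male G *Kcnmb4* (105 UMIs) and *Kcna4* (76) lay above *Kcnd2* (70), in male T *Kcnj5* (42) above *Kcnj6* (34), and in female T *Kcnk2* (29) above *Kcnk3* (23). Kcnj genes made up 52.6% of the member UMIs of EC, and Kcnk genes 45.6% of those of S and 20.2% of those of L.

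**Figure D3:**
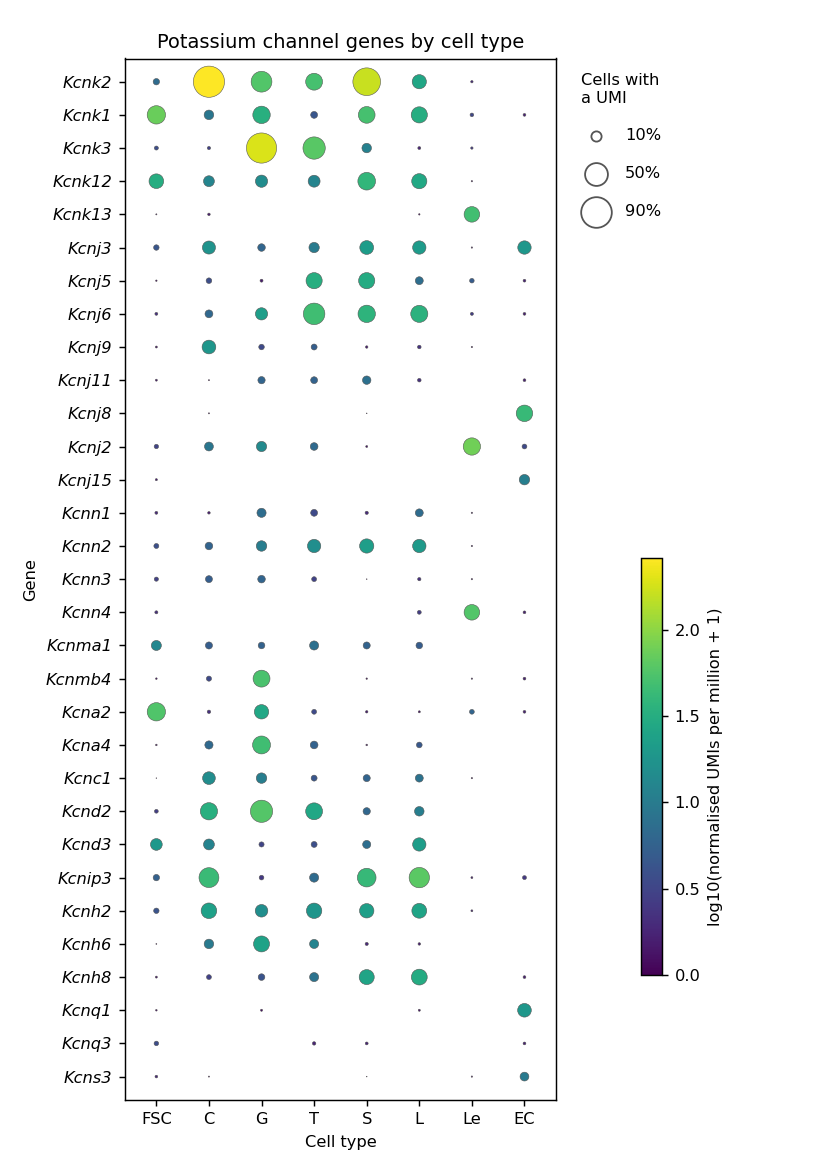
Level of 31 members in 8 cell types. Dot size gives the percent of cells with a UMI and colour the log10 of 1 plus the level in CPM (normalised UMI count per 1000000). Kcnk13, Kcnn4 and Kcnj2 stand out in Le, Kcnj8 and Kcnq1 in EC, Kcnmb4 and Kcnk3 in G, and Kcnk2 in C and S.

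Whether a member was higher in 1 type than in each of the other 7 was tested on UMI sums per type and sex with edgeR's quasi-likelihood test, and Benjamini-Hochberg adjusted p-values over all 13619 genes tested. Of the 68 members, 51 passed the filter on low counts. All 51 were called in at least 1 of the 28 pairs of types, which 92.3% of all genes tested also were, so this count says nothing particular to channels. Called in 1 type over all others were 3 members in Le (9.21% of all genes tested), 4 in EC (5.25%) and 1 in G (0.734%). None was called in FSC (4.09%), C (1.07%), T (0.213%), S (0.360%) or L (0.587%) by edgeR in these sums. At an unadjusted p of 0.05, edgeR called 2 members in FSC, 2 in C, 1 in L and none in T and S, and DESeq2 called 1 in L and none in FSC, C, T and S. In the type where its level was highest, another 12 members were called above 6 of the other 7 types (14.0% of all genes tested) and 13 above 5 (12.3%). By highest level 10 members led in G, 8 in L, 7 in Le, 7 in T, 6 in C, 5 in FSC, 4 in EC and 4 in S. No share over all genes is given for this split or for the unadjusted and DESeq2 counts, so they say nothing particular to channels. Levels below are in CPM (normalised UMI count per 1000000, scaled by the TMM method of edgeR), differences are on the log2 scale with their SE, and ± after a level is the SD over 4 lanes.

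In leukocytes 3 of the 51 members tested were called (5.88%), against 9.21% of all genes. They were a tandem-pore, a calcium-activated and an inward rectifier gene. *Kcnk13*, a THIK channel gene, was at 33.2, 53.5, 51.2 and 51.8 in Le, and its UMIs were found in 23.3% of Le (95% exact binomial interval 19.8 to 27.0%). It lay at least 6.53 ± 0.61 above any other type, the nearest being C, and the largest adjusted p over the 7 pairs was 0.000138. *Kcnn4*, the gene of the intermediate-conductance calcium-activated channel, was at 44.7, 49.6, 58.5 and 72.6 in Le, in 23.3% of cells, with the nearest type L lower by 5.31 ± 0.65 (largest adjusted p = 0.000264). *Kcnj2*, the gene of a strong inward rectifier, was at 57.7, 70.4, 98.8 and 79.1 in Le and found in 28.7% of cells (25.0 to 32.7%). UMIs of *Kcnj2* were also found in 10.1% of G and 7.58% of C, and the difference from G was 2.85 ± 0.51 (largest adjusted p = 0.000311). In all 4 lanes these 3 genes were higher in Le than in any lane of any other type. Outside Le, *Kcnk13* was at most 0.528 and *Kcnn4* 2.84 in any sum, so both met the filter on low counts only through Le.

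In endothelial cells 4 of the 51 members tested were called (7.84%), against 5.25% of all genes. They were genes of inward rectifiers, a Kcnq channel and a silent subunit. *Kcnj8*, the pore gene of an ATP-sensitive channel, was at 29.97, 29.6, 41.5 and 63.9 in EC, where 35 of 134 cells held its 61 UMIs, and no other of the 7 types held more than 1 UMI (largest adjusted p = 0.00282). *Kcnq1*, a channel gene better known from heart and epithelia, was at 14.0, 14.8, 18.2 and 24.9 and was found in 17.9% of EC (largest adjusted p = 0.0117). The inward rectifier gene *Kcnj15*, at 4.0, 12.3, 7.78 and 14.2, and the silent subunit gene *Kcns3*, at 4.0, 12.3, 7.78 and 10.7, rested on few UMIs, and their largest adjusted p-values were 0.0466 and 0.0430. In the other types neither exceeded 0.904 in any sum, so both met the filter on low counts only through EC. The same holds for *Kcnj8* and *Kcnq1*, which were at most 0.256 and 0.728 in any sum of another type. The calls of *Kcnj15* and *Kcns3* were lost with no such filter (edgeR adjusted p = 0.0548 and 0.0604) and without the lane of 2047 or 2085 cells. Without the lane of 1861 cells neither was tested. *Kcnj8* is also known as a pericyte gene, so markers picked after its values were seen were counted in the same cells. Of the 35 EC with *Kcnj8*, 33 had *Cdh5* and 31 *Pecam1*, both endothelial and found in 122 and 109 of the 134 EC. Of the mural cell genes, *Pdgfrb* was found in 4 EC, *Notch3* in 5, *Cspg4* in 4 and *Vtn* in 3, and every one of these cells also had *Kcnj8*. The cells without *Pdgfrb* held 43 of the 61 *Kcnj8* UMIs, and 6 of the 16 EC with *Rgs5*, another mural gene, had *Kcnj8*. *Abcc9*, the sulfonylurea receptor gene that pairs with *Kcnj8*, had 41 UMIs in 11 EC, of which 6 also had *Kcnj8*.

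The third type with a called member was G, with 1 of the 51 tested (1.96%), against 0.734% of all genes. *Kcnmb4*, the beta subunit gene of the large-conductance channel, was at 10.2, 7.70, 62.4 and 128 in G, found in 27.4% of G (21.8 to 33.6%) and in 2.53% of C, and no T or L held a UMI. The difference from C was 4.06 ± 0.74 and the largest adjusted p 0.0127, but in sums per lane *Kcnmb4* did not pass the filter on low counts and was not tested. In the sums per type and sex it was at most 2.81 outside G, so it met that filter only through G. Both male lanes were well above the female lanes, which is described with the sexes. The gene of the pore that it modifies, *Kcnma1*, was not led by G: it was at 12.1 ± 3.22 in FSC, 6.58 ± 5.22 in T, 4.70 ± 1.60 in S and 4.62 ± 6.15 in G, and no UMI was found in Le or EC. FSC differed from S for *Kcnma1* by 1.33 ± 0.48 (adjusted p = 0.0330) but not beyond error from T (0.44 ± 0.72, adjusted p = 0.711).

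Types share lanes, so sums per lane were also fitted with lane as a block. Of 34 members tested 15 were then called (35.1% of all 11456 genes tested in that fit). In the sums per type and sex, 21.5% of all genes tested were called. The 2 lanes of a sex are technical replicates of 1 pool. This fit therefore counts each pool as 2 replicates, and its p-values do not measure the spread between pools. Of the 8, *Kcnk13*, *Kcnn4*, *Kcnj2*, *Kcnj8* and *Kcnq1* stayed called, and *Kcnmb4*, *Kcnj15* and *Kcns3* did not pass the count filter. Gained were *Kcnk1* over S (0.99 ± 0.33, largest adjusted p = 0.00883) and *Kcna2* over G (1.27 ± 0.36, 0.00326) in FSC, and *Kcnk2* over S (0.75 ± 0.28, 0.0276) and *Kcnj9* over T (2.66 ± 0.78, 0.0117) in C, the type named after each gene being the nearest. In G they were *Kcnk3* over T (1.70 ± 0.36, largest adjusted p = 0.00126), *Kcna4* over C (2.99 ± 0.46, 0.00377) and *Kcnc4* over C (3.29 ± 0.55, 0.00367). The others were *Kcnip3* in L over C (0.61 ± 0.17, largest adjusted p = 0.00508), and *Kcng2* over C (1.17 ± 0.33, 0.00317) and *Kcnk10* over G (1.07 ± 0.38, 0.0163) in Le. The differences of these genes that do not pass in the following paragraphs come from the 16 sums per type and sex. In those sums *Kcnk1* was at 63.7 in FSC and 78.0 in S in females, and at 70.8 and 16.7 in males. It was thus higher in FSC than in S in males only. *Kcna2* was at 44.3 in FSC and 46.6 in G in males, so that order held in females only. With E in the fit *Kcnk3* alone was called. The 8 still passed against each of the 7 other types there (largest adjusted p by edgeR = 0.0387), but not against E. DESeq2 gave 7 calls, 4 of them among the 8, and lost *Kcnn4*, *Kcnj8*, *Kcnj15* and *Kcns3*.

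The leak channel genes of the endocrine cells were high in more than 1 type. *Kcnk2* was at 259, 256, 263 and 261 in C and at 155, 150, 165 and 175 in S, followed by 56.0 ± 11.8 in G, and was found in 93.3% of C (91.3 to 94.9%), 73.4% of S, 41.4% of G and 19.3% of L but in 0.277% of E. The lanes of C and S did not overlap, yet the difference of 0.73 ± 0.50 did not pass (adjusted p = 0.327), whereas C exceeded G by 2.20 ± 0.56 (adjusted p = 0.0138). In T the lane of 1861 cells stood apart, with *Kcnk2* at 17.5, 130, 26.1 and 23.6. *Kcnk3*, which encodes the acid-sensitive leak channel TASK, was at 209, 206, 191 and 159 in G and at 70.1, 54.9, 78.4 and 38.4 in T. UMIs of *Kcnk3* were found in 87.3% of G (82.4 to 91.3%) and 47.7% of T (37.0 to 58.6%), and in 45.6% and 20.5% after thinning. The difference between G and T was 1.62 ± 0.45 and missed the limit at an adjusted p of 0.0555. In contrast to both, *Kcnk1* was highest in FSC by the mean of the lanes (71.7 ± 4.87). It was widespread, with 49.7 ± 37.4 in S, 32.2 ± 11.3 in G and 31.2 ± 32.3 in L. The SDs in S and L reflect a gap between the sexes. In the female sums *Kcnk1* was higher in S (78.0) than in FSC (63.7).

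Genes of voltage-gated channels were highest in different types. *Kcna2*, a delayed rectifier gene, was at 64.6, 60.6, 49.6 and 44.7 in FSC and at 6.14, 7.70, 37.0 and 54.2 in G, and the difference did not pass (1.15 ± 0.54, adjusted p = 0.111). *Kcna4*, which encodes a rapidly inactivating channel, was at 26.6, 17.6, 66.3 and 73.4 in G and at 5.59 ± 0.77 in C, a difference of 3.04 ± 0.68 (adjusted p = 0.00689), while the difference from T, 3.27 ± 0.98, missed the limit (adjusted p = 0.0817). The A-type genes divided between types, *Kcnd2* being at 57.5 ± 12.6 in G, 32.4 ± 6.06 in C and 26.6 ± 8.32 in T, and *Kcnd3* at 20.9 ± 12.5 in L and 18.6 ± 7.52 in FSC. *Kcnc1*, the gene of a fast delayed rectifier, was highest in C (14.1 ± 3.0).

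The ether-a-go-go related genes were distributed differently. *Kcnh2* was found in all the endocrine types, at 24.7 ± 3.38 in L, 22.6 ± 4.75 in C, 21.6 ± 2.87 in S, 17.1 ± 6.79 in T and 14.2 ± 6.46 in G. *Kcnh6* was at 23.9 ± 9.48 in G, 11 ± 8.54 in T and 8.70 ± 2.62 in C, and *Kcnh7* stayed low at 4.87 ± 2.48 in L and 3.94 ± 1.89 in C. The M-current gene *Kcnq3* was low, at 2.65 ± 1.96 in FSC. The auxiliary gene *Kcnip3* was at 62.1, 86.5, 55.2 and 44.1 in L, 42.0 ± 5.65 in C and 40.2 ± 1.04 in S, and its difference between L and C missed the limit (0.58 ± 0.21, adjusted p = 0.0615).

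Of the inward rectifier subunits that form G protein-gated channels, *Kcnj6*, *Kcnj3* and *Kcnj5* were spread over more than 1 type, and *Kcnj9* was found mostly in C. *Kcnj6* was at 46.4 ± 16.8 in T, 35.2 ± 4.29 in S and 33.9 ± 8.94 in L, values that overlapped, at 7.17, 2.20, 46.8 and 27.97 in G and at 5.46 ± 0.65 in C. *Kcnj3* was at 20.1 ± 3.85 in S, 19.6 ± 5.79 in L, 17.9 ± 5.35 in EC and 16.4 ± 3.28 in C. *Kcnj5* was in T and S, at 11.7, 4.99, 52.3 and 59.1 in T and at 29.1 ± 2.45 in S, and the T and S lanes overlapped. *Kcnj9* was highest in C, at 13.9, 14.8, 18.7 and 22.4, and was called there above 6 of the other types. Its difference from T missed the limit (2.54 ± 0.89, adjusted p = 0.0847). The ATP-sensitive pore gene *Kcnj11* was low, at 6.62 ± 2.26 in S, 4.97 ± 4.10 in G and 4.69 ± 4.25 in T. The small-conductance genes were led by *Kcnn2*, at 21.2 ± 2.28 in S, 19.2 ± 6.21 in L and 14.4 ± 3.45 in T, with *Kcnn1* at 6.17 ± 3.77 in G and 5.96 ± 4.22 in L and *Kcnn3* at 5.04 ± 2.04 in G. Of 26 genes long studied in pituitary cells, 25 were members, 24 were tested and 3 (*Kcnn4*, *Kcnj8* and *Kcnmb4*) were called in 1 type, where 21.5% of all genes tested were. Of the 22 tested between the sexes in at least 1 type, 12 were called in at least 1, as were 41.5% of all 14234 genes so tested.

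Among the families' other leading genes, *Kcnab2* was at 13.8 ± 4.52 in G and 12.3 ± 2.99 in Le. *Kcng1* was highest in L (12.5 ± 3.08) and *Kcnf1* in S (1.46 ± 0.49). *Kcnrg* was at 15.9 ± 5.80 in Le, 10.6 ± 3.24 in L and 9.81 ± 4.69 in EC, the most even of these. *Kcne1l* was at 0, 0, 32.9 and 1.30 in Le, so that 1 lane held nearly all of it there, and at 7.61 ± 2.72 in FSC. *Kcnt2* was at 7.34 ± 4.15 in T and *Kcnv1* at 9.44 ± 6.50 in L.

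Partners of the channels that are not Kcn genes were read from a list of 18, chosen with earlier results of these data known. Of these 11 were tested between types and 4 were called in 1 type, where 21.5% of all genes tested were. The called partners were *Drd2*, the dopamine receptor gene, in L (68.0), *Adora1*, an adenosine receptor gene (11.4), and *Lingo1* (28.7) in FSC, and *Lrrc55*, a gamma subunit gene of the large-conductance channel, in EC (26.2). *Abcc8*, which encodes the sulfonylurea receptor that pairs with *Kcnj11*, was at 91.7 in S, 26.5 in T, 15.9 in G and 11.1 in L. *Dpp6*, an auxiliary subunit gene of Kcnd channels, was at 48.4 in G, 36.3 in T and 18.3 in C, the 3 types that also had the highest *Kcnd2* levels. The somatostatin receptor gene *Sstr2* was at 25.6 in T and 24.5 in S, which were also the types with most *Kcnj5*, and *Sstr5* was at 10.95 in S. *Drd4* was at 20.5 in L, *Dpp10* at 19.7 and *Lrrc52* at 15.95 in T and *Sstr3* at 13.7 in G. *Amigo1* had 358, *Lrrc38* 41, *Lrrc26* 21 and *Sstr1* 5 UMIs in all.

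The sexes were compared within each pituitary type by edgeR's quasi-likelihood test on the 4 lane sums, with Benjamini-Hochberg adjustment over all genes tested in that type. There were 30 calls of 24 members, 6 of them in more than 1 type, out of 53 members tested in at least 1 type (41.5% of all genes). In L, 6 of 23 members tested were higher in males (14.0% of all genes) and 3 in females (18.7%). In S, 3 of 29 were higher in males (13.4%) and 5 in females (13.0%). In G, 5 of 16 were higher in males (6.65%) and none in females (8.52%), where edgeR called 1 at an unadjusted p of 0.05 and DESeq2 none. In FSC, 5 of 33 were higher in males (5.64%) and 2 in females (5.97%). In T, 1 of 3 was higher in males (2.97%) and none in females (1.50%), where the unadjusted test and DESeq2 also called none. In C none of 26 was called in males (0.514%) or females (0.987%) by edgeR or DESeq2, and 5 had an unadjusted p under 0.05. The unadjusted and DESeq2 counts between the sexes have no share over all genes beside them. The median difference of the members tested was 0.43 in L and 0.44 in G, against 0.01 for all genes in both, and 0.09 in S, 0.01 in C, -0.12 in FSC and -0.19 in T. Scaling by library size in place of TMM moves the median of all genes to 0.67 in L, 0.29 in G and -0.14 in T, so differences here are relative to the other genes of the same cells. Levels in the following paragraphs are normalised within 1 type and differ in scale from those above, and each difference is male minus female on the log2 scale. Genes called on these 4 lanes tend to have lanes that do not overlap between the sexes. Such separation, where given below, describes the called genes and adds no support, and its share over all genes is not given.

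**Figure D4:**
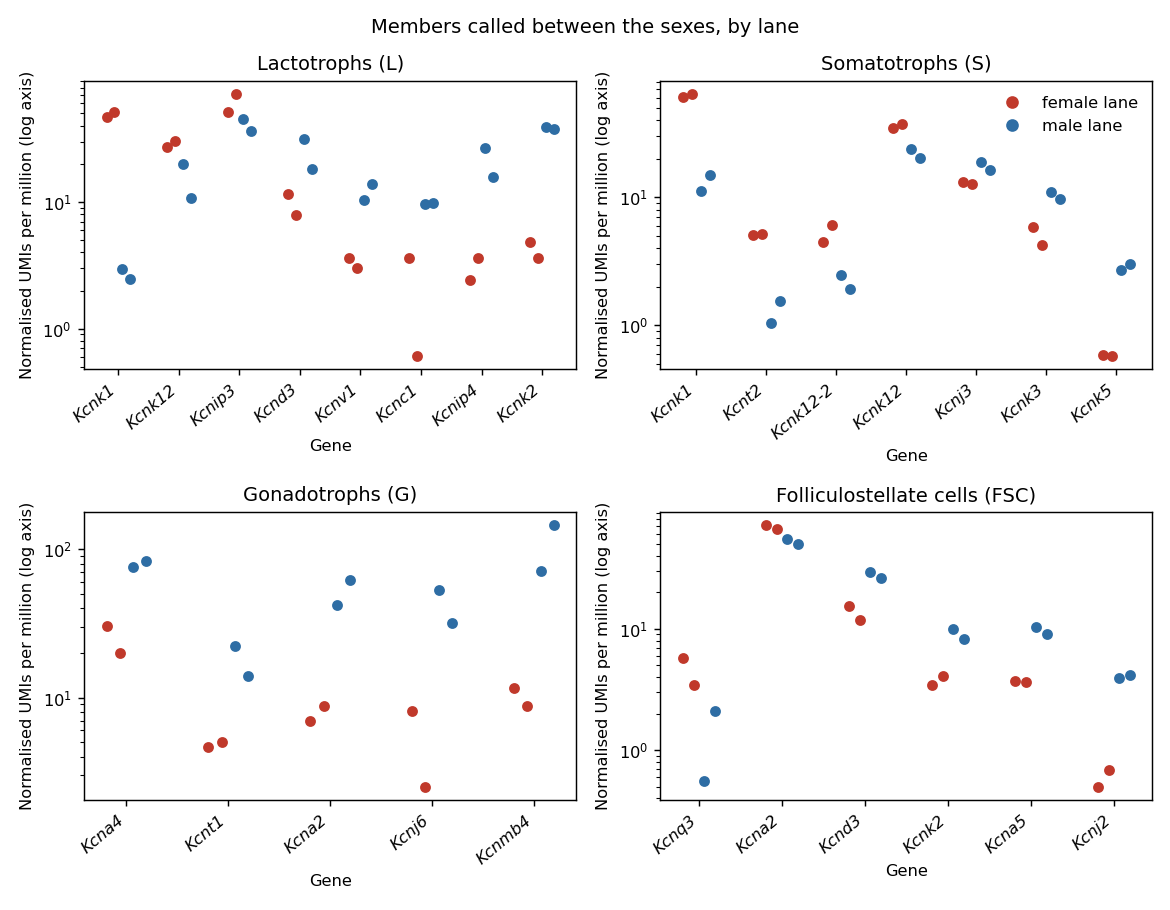
Level (CPM) of the described members called between the sexes in L, S, G and FSC, by lane, on a log axis. Each point is 1 lane of 1 pool, with 2 female and 2 male lanes. Kcnk1 is lower in both male lanes of L and S, and Kcnmb4, Kcna2 and Kcnj6 are higher in both male lanes of G.

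Lactotrophs of the 2 sexes differed in their leak channels, *Kcnk1* being high in females and *Kcnk2* in males. *Kcnk1* was at 46.7, 51.0, 2.97 and 2.47 and was found in 51.3% of female L (44.6 to 58.1%) and 2.33% of male L (0.858 to 4.99%). The difference was -4.12 ± 0.35 (adjusted p = 1.27e-09). *Kcnk2* was at 4.85, 3.65, 39.4 and 37.9 and was found in 5.80% of female and 31% of male L, a difference of 3.16 ± 0.33 (adjusted p = 3.17e-08). For both genes the lanes of a sex lay close together and far from the other sex. These shares go with unequal depth, the median being 18336.5 UMIs in female L and 7253.5 in male L. With cells thinned to 3000 UMIs the edgeR difference was -5.34 for *Kcnk1* (adjusted p = 1.02e-06) and 3.39 for *Kcnk2* (adjusted p = 0.000437).

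The other members higher in male L were genes of voltage-gated channels and their partners. *Kcnip4*, a calcium-binding subunit gene, was at 2.43, 3.65, 26.8 and 15.6 (2.79 ± 0.43, adjusted p = 1.41e-05). *Kcnd3* was at 11.5, 7.90, 31.2 and 18.1 (1.35 ± 0.33, adjusted p = 0.00248), and *Kcnc1* at 3.64, 0.608, 9.67 and 9.88 (2.16 ± 0.53, adjusted p = 0.00244). *Kcnv1*, a silent subunit gene, had 11 UMIs in females and 31 in males (1.83 ± 0.43, adjusted p = 0.00174). In these 4 both male lanes were above both female lanes. Higher in female L were *Kcnk12*, another THIK channel gene, at 27.3, 30.4, 20.1 and 10.7 (-0.88 ± 0.29, adjusted p = 0.0194), and *Kcnip3* at 51.5, 71.1, 45.4 and 36.2 (-0.58 ± 0.20, adjusted p = 0.0251). *Kcnip3* turned to 0.08 (adjusted p = 0.739) with scaling by library size, and without either male lane only *Kcnk1* and *Kcnk2* stayed called. The summed markers of FSC were at 19.0, 22.2, 62.4 and 10.0 in L, female *Kcnk1* in L was 87.0% of its level in FSC where the FSC marker *Fxyd1* was 0.537%, and male *Kcnk2* in L was 18.0% of its level in C where *Pomc*, the hormone gene of C, was 0.271% of its own.

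Somatotrophs shared the *Kcnk1* difference. *Kcnk1* was at 60.7, 64.0, 11.2 and 15.1 in S and was found in 40.7% of female and 14.8% of male cells (-2.24 ± 0.11, adjusted p = 1.97e-16). Also higher in females was *Kcnk12* at 34.7, 37.3, 23.6 and 20.3 (-0.71 ± 0.11, adjusted p = 9.08e-06). The sodium-activated channel gene *Kcnt2* was at 5.09, 5.16, 1.03 and 1.55 (-1.96 ± 0.36, adjusted p = 7.81e-05), and *Kcnk12-2* had 55 UMIs in females and 35 in males (-1.28 ± 0.32, adjusted p = 0.00268). Higher in males were 2 leak channel genes, *Kcnk3* at 5.87, 4.20, 11 and 9.68 (1.03 ± 0.22, adjusted p = 0.000695) and *Kcnk5* at 0.587, 0.573, 2.71 and 2.99 (2.26 ± 0.51, adjusted p = 0.00103). *Kcnj3* was at 13.1, 12.6, 18.7 and 16.2 (0.44 ± 0.15, adjusted p = 0.0325), a call lost without the lane of 1868, 1861 or 2047 cells. No lane of one sex overlapped the other in these 7, genes that the test on the same lanes had picked. Summed markers of G were at 331, 367, 310 and 636 in S, and male *Kcnk3* in S was 7.83% of its level in G where *Lhb* was 0.154%.

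Gonadotrophs of male rats had more of 5 members, a beta subunit, Shaker-type channels, an inward rectifier and a sodium-activated channel. *Kcnmb4* was at 11.7, 8.72, 71.4 and 146, with 17 UMIs in females and 105 in males, in 11% (6.44 to 17.3%) and 53.3% (42.6 to 63.7%) of cells (3.40 ± 0.39, adjusted p = 3.16e-05). *Kcna2* was at 7.0, 8.72, 42.4 and 62.0 and was found in 7.59% and 39.1% of cells (2.72 ± 0.40, adjusted p = 0.000243). *Kcna4* was at 30.3, 19.9, 75.8 and 84.0 (1.66 ± 0.28, adjusted p = 0.000806). The G protein-gated subunit gene *Kcnj6* was at 8.17, 2.49, 53.5 and 32.0, in 4.83% and 29.3% of cells (2.92 ± 0.50, adjusted p = 0.000895). In each of these the lowest male lane exceeded the highest female lane. *Kcnt1* was at 4.67, 4.98, 22.3 and 14.0 (1.85 ± 0.53, adjusted p = 0.0290), a call lost when any 1 of the 4 lanes was left out. Depth differed between the sexes, with medians of 12316 UMIs in female and 8858 in male G. With cells thinned to 3000 UMIs *Kcnmb4* and *Kcna4* stayed called, and *Kcna2*, *Kcnj6* and *Kcnt1* were not tested. In male G, *Kcna2* was at 96.8% of its level in FSC while *Fxyd1* was at 1.18%, and *Kcnj6* at 81.5% of its level in T while *Tshb* was at 0.0841%. The summed markers of T were at 24.6, 17.6, 81.9 and 40.2 in G, those of FSC at 21.5, 19.8, 5.85 and 21.0.

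The promoters of these 4 leading male-higher genes of G are shown because the genes moved together in 1 cell type. Each is 300 bases from RefSeq (rat assembly GRCr8), from 250 bases before to 50 after the gene's start, written 5′ to 3′ on the gene's strand, with capitals marking GC boxes (GGGCGG or its reverse complement) and CCAAT boxes (CCAAT, either strand). *Kcnmb4* lies at chr7:54005052-54005351 on the minus strand, *Kcna2* at chr2:197393280-197393579 on the plus strand, *Kcna4* at chr3:114215086-114215385 on the plus strand and *Kcnj6* at chr11:47778299-47778598 on the minus strand.
Kcnmb4: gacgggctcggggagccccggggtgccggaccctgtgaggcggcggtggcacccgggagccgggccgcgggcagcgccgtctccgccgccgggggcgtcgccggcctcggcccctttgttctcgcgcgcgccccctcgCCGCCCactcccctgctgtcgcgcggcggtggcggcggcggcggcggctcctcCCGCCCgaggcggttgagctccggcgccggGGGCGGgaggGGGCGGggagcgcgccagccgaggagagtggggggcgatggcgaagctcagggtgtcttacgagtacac
Kcna2: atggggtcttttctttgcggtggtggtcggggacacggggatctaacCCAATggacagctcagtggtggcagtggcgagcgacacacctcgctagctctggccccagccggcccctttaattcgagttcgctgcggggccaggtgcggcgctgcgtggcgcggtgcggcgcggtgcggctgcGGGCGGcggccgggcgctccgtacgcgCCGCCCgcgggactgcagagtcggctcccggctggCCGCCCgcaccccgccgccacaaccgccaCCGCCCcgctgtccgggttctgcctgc
Kcna4: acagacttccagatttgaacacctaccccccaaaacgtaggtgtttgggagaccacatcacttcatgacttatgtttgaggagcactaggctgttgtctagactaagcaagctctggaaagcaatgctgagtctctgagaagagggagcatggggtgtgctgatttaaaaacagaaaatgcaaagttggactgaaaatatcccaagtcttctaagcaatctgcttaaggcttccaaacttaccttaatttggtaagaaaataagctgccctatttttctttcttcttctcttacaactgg
Kcnj6: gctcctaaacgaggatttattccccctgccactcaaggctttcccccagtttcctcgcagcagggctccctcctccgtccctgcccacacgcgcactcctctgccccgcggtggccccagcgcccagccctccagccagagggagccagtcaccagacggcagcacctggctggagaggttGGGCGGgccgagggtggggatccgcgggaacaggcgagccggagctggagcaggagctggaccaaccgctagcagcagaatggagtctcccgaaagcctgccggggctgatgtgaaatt
*Kcnmb4* and *Kcna2* each had 4 GC boxes, *Kcnj6* had 1 and *Kcna4* none, and *Kcna2* had the 1 CCAAT box of the 4. Their GC content was 80.7% in *Kcnmb4*, 73.3% in *Kcna2*, 41.7% in *Kcna4* and 66.7% in *Kcnj6*, so they share no common composition. In all, 43 members matched the table, with 48 windows of a median GC content of 62%, against 51.7% over 33469 promoters. The GC box was in 26 of the 48 windows (54.2%) and in 33.1% of all promoters, the CCAAT box in 13 (27.1%) and 37.5%, and the TATA core (TATAAA) in none and 14.2%. The cyclic AMP response element (TGACGTCA) was in none of the 48 and in 1.83% of all, and the full palindromic estrogen response element in none and in 9 promoters of all. Each motif was searched on both strands, and a match describes the letters only.

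In male FSC, genes of voltage-gated channels, an inward rectifier and a leak channel were higher. *Kcnd3* was at 15.4, 11.8, 29.2 and 26.3 and was found in 7.96% of female and 18.5% of male FSC (1.03 ± 0.16, adjusted p = 0.000515). *Kcna5* was at 3.72, 3.64, 10.3 and 9.13 (1.39 ± 0.26, adjusted p = 0.00216). Also higher in males were 2 members with far more in another type, *Kcnj2* at 0.496, 0.682, 3.93 and 4.19 (2.72 ± 0.54, adjusted p = 0.00333) and *Kcnk2* at 3.47, 4.09, 9.92 and 8.18 (1.25 ± 0.27, adjusted p = 0.00647). Higher in females were *Kcna2*, the second most abundant channel gene of FSC, at 71.7, 67.1, 55.0 and 49.7 (-0.41 ± 0.09, adjusted p = 0.00940), and the M-current gene *Kcnq3* with 38 and 14 UMIs (-1.75 ± 0.52, adjusted p = 0.0384). The lanes of the sexes did not overlap in any of these 6, and without the lane of 2047 cells 4 of the 7 calls stayed, with *Kcnk2* and *Kcnq3* among those lost. The *Kcnk2* difference fell to 0.40 (adjusted p = 0.705) with cells thinned to 3000 UMIs, and DESeq2 did not call it (adjusted p = 0.109). DESeq2 also did not call *Kcna2* (adjusted p = 0.100) or *Kcnq3* (adjusted p = 0.199). The *Kcna2* call was lost without the lane of 2085 cells, where its difference was -0.34. Markers of the endocrine types also differed between the sexes in FSC, those of G being at 532, 416, 1500 and 2275, those of S at 2503, 2302, 2866 and 4054 and those of L at 1121, 1323, 286 and 241. *Kcnk2* in FSC was 1.32% of its level in C in females and 3.11% in males, where *Pomc* was 0.142% and 0.205%. *Kcnj2* was 0.830% and 4.11% of its level in Le, where *Tyrobp* was 0.0770% and 0.0594%.

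In T, *Kcnj5* was at 17.3, 6.86, 66.7 and 77.7, with 3 UMIs in females and 42 in males (2.58 ± 0.68, adjusted p = 0.0132). The call was lost without the lane of 1868, 1861 or 2047 cells, and without that of 2085 cells *Kcnj5* did not pass the count filter. DESeq2 gave a difference of 2.63 with no adjusted p. The T group was small, with 37 female and 51 male cells, and its own markers were at 7947, 19872, 77116 and 68115, so the cells named T in the 2 sexes also differed in those.

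Whether the sex difference of a member in L or G differed from the mean of the other 5 pituitary types was tested in 1 fit of 24 sums. In L, 6 members were called against 16.1% of all 13536 genes tested, and in G, 3 against 4.54%. *Kcnk2* in L exceeded the mean of the other types by 3.16 ± 0.39 (adjusted p = 8.55e-09), its own differences being 3.20 in L, 1.24 in FSC, 0.45 in G, 0.15 in S, 0.01 in C and -1.62 in T, where the lane of 1861 cells stood apart. *Kcnk1* lay below that mean by -3.67 ± 0.56 (adjusted p = 1.35e-06), with -4.11 in L, -2.23 in S, -0.60 in G, -0.10 in C and 0.15 in FSC. The *Kcnk1* difference was thus found in both L and S and was larger in L than in the mean of the other types. *Kcnc1* was also called, at 2.95 ± 0.92 (adjusted p = 0.0202), with 2.21 in L and -0.16 in C. Part of this size comes from FSC and T, which had at most 1 UMI per lane and fitted differences of -1.63 and -1.98.

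In G, *Kcna4* differed by 3.07 ± 0.63 (adjusted p = 0.000873) and *Kcnj6* by 2.61 ± 0.59 (adjusted p = 0.00284). The own difference of *Kcna4* was 1.65 in G, 0.18 in C and -0.43 in T. Part of its contrast comes from types with few UMIs, with fitted differences of -3.65 in L, -2.07 in S and -1.12 in FSC. In L its UMIs by lane were 9, 9, 0 and 1. *Kcnj6* was 2.94 higher in males in G but -0.12 in L, 0.15 in S and -0.10 in T, the types with most of it. In FSC, where its UMIs by lane were 2, 2, 7 and 15, it was also higher in males, by 2.00 ± 0.71. *Kcna2* differed by 5.14 ± 0.96 (adjusted p = 0.000276), with 2.73 in G and -0.41 in FSC, the only other type in which it was abundant. Part of this size comes from T and L, which had 2 cells each with a *Kcna2* UMI and fitted differences of -6.80 and -3.99. *Kcnmb4* was not called, and T and L had no UMI of it. Without the lane of 1861 cells none of the 3 was called in G, and only *Kcnk1* and *Kcnk2* in L.

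**Figure D5:**
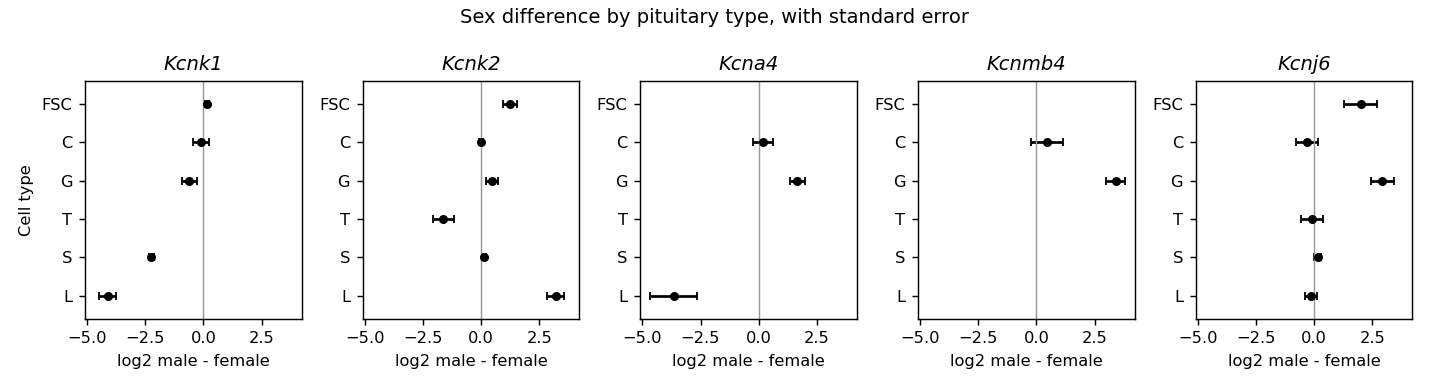
Difference between male and female lanes (log2) of 5 members in each pituitary type with at least 10 UMIs over the 4 lanes. Points are estimates of 1 fit and bars their SE. Kcnk1 is negative in L and S, Kcnk2 is positive in L and FSC, and Kcnj6 is positive in G and FSC and near 0 in L, S and T.

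Among the partners, *Sstr5* (1.23 ± 0.21, adjusted p = 4.09e-05) and *Sstr2* (0.53 ± 0.14, adjusted p = 0.00365) were higher in males in S. *Drd4* in L was lower in males (-5.26 ± 0.55, adjusted p = 3.59e-08), while *Drd2* in L did not pass (-0.12 ± 0.18, adjusted p = 0.646).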

How the data were processed

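Per the labels and the study's methods, mRNA was captured with the 10X 3′ v2 kit and the authors deposited UMI counts per gene and cell. These were made with Cell Ranger 2.1 (submitters' processing notes) on an NCBI rat annotation with extended 3′ ends. By the study's methods the lanes were merged by Cell Ranger aggr with mapped normalisation. Lane totals and depths given here are therefore those after that step. Extension can assign reads of a neighbour to a gene. Lanes were matched to sex by their cell number, and 30 barcodes occurred in more than 1 lane. Cell names were rebuilt from the study's marker genes (Otsu thresholds, 221 cells named by neighbours), so a difference from the study may come from rebuilt names. Removed were 1011 cells, among them 201 called doublets, 190 ambiguous and 26 unclassified cells, 275 with a high mitochondrial share and 331 with outlying depth, and 51 pericytes, 60 melanotrophs and 59 posterior pituitary cells.

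UMIs were summed per type and sex (16 sums, E left out) or per type and lane. The tests were edgeR 4.0.16 (R 4.3.3; TMM, filterByExpr with a minimum count of 10, quasi-likelihood F test with cell type and sex or sex alone as terms, 2-sided, Benjamini-Hochberg over all genes, limit 0.05). SE is the log2 difference divided by the square root of F. Alternatives were DESeq2 1.42.0, library size scaling, no filter, a limit of 0.001, other cell sets, thinning to 3000 UMIs and leaving out each lane. Scripts were tested on simulated data. Shares have exact binomial 95% intervals. RefSeq symbols were matched through a GRCr8 table. Named were members called in 1 type or between the sexes, a list of long-studied channels, the leading gene of each family and a list of partners, apart from a few genes that enter the counts but are not reported here by name; the members and lists were chosen with earlier results of these data known.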

Additional observations from a re-analysis of the deposited data

Results flagged for a closer look

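The sex differences of 3 members in G and 6 in L, *Kcnj6* being in both, differed from the mean of the other 5 pituitary types by a test of the difference itself (edgeR, adjusted over all genes). In G these were *Kcna2* (5.14 on the log2 scale), *Kcna4* (3.07) and *Kcnj6* (2.61). In L they were *Kcnk2* (3.16), *Kcnk1* (-3.67), *Kcnc1* (2.95), *Kcnj6* (-1.06 ± 0.35, adjusted p = 0.0288), *Kcnn1* (-3.47 ± 1.15, adjusted p = 0.0307) and *Kcnk12-2* (-4.17 ± 1.44, adjusted p = 0.0397). The *Kcnj6* value in L reads against a mean that holds its differences of 2.94 in G and 2.00 in FSC, its own difference in L being -0.12. *Kcnn1* and *Kcnk12-2* rest on types with few UMIs, *Kcnn1* being -1.97 ± 0.72 in L and 6.78 ± 4.20 in T, and *Kcnk12-2* being -1.83 ± 0.78 in L and 5.80 ± 4.97 in T. The sizes for *Kcna2* and *Kcna4* in G and *Kcnc1* in L also draw in part on types with few UMIs, as given above.

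Cells left out of the types held some members above every type. These values are UMIs per 1000000 with no normalisation and no test, since nearly all such cells came from the male pool (56 of 60 melanotrophs and 55 of 59 posterior pituitary cells). In melanotrophs, the fast delayed rectifier gene *Kcnc1* was at 35.9 (26 UMIs in 18 of 60 cells), against 14.1 in C, the highest type. *Kcnh7* was at 20.7 in melanotrophs (15 UMIs) and 3.67 in L. *Kcnd1* and *Kcnf1* were each at 8.28 there (6 UMIs), against 3.12 in C and 1.06 in S, and *Kcnmb2* was at 5.52 (4 UMIs) against 1.4 in C. In posterior pituitary cells, *Kcnma1* was at 54.1 (36 UMIs in 19 of 59 cells) against 13.0 in FSC, and *Kcnh1* at 18.0 (12 UMIs in 8 cells) against 7.24 in FSC.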

How the results depend on the processing

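Among single genes, 74 of 99 values between types, 263 of 341 between the sexes and 72 of 99 of the interaction kept direction and side of the limit, 129 lost the call in the same direction, and 1 turned, *Kcnip3* in L, from -0.58 to 0.0798 with library size. Among those kept in every alternative in which they were tested were *Kcnk1* and *Kcnk2* in L, *Kcnk1*, *Kcnk12* and *Kcnt2* in S, *Kcnmb4*, *Kcna4*, *Kcna2* and *Kcnj6* in G and *Kcnd3* in FSC. The 8 members called in 1 type became 14 with no filter, 3 at a limit of 0.001, 15 with sums per lane and lane as a block and 1 with E put back. The 7 of FSC became 3 with DESeq2, 1 at 0.001 and 2 with cells thinned. The 5 of G became 2 with cells thinned. The 1 of T became 0 with DESeq2 (which gave it no adjusted p), 3 with no filter, 0 at 0.001 and 0 with only cells that had their own markers. The 8 of S became 5 at 0.001 and 3 with cells thinned. The 9 of L became 4 with DESeq2, 5 with no filter, 3 at 0.001 and 3 with cells thinned. The 6 of the L interaction became 2 at 0.001. Leaving out each lane gave 8 to 9 calls between types, 4 to 9 in FSC, 0 in C, 4 to 5 in G, 0 to 1 in T, 6 to 10 in S, 2 to 8 in L, 2 to 6 in the L interaction and 0 to 3 in the G interaction. Thinning keeps fewer UMIs and the limit of 0.001 is stricter by construction. With E put back, the 8 type calls were lost in the added contrast with E and not in those with the 7 other types. For the remaining changes the cause was not tested. In T no member was left to test after thinning. Every lane holds all types, so lane was the block in the fit of sums per lane, while the main fit between types had sex as a term. Between the sexes no paired analysis was possible because the female and male lanes come from separate pools. The cell barcodes also do not carry the labels' replicate numbers. Depth limits G, T and EC most, where few cells and UMIs stand behind each member.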

Other observations

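The cells left out of the types also differed in their leak channel genes. *Kcnk2* had 83 UMIs in 42 of the 60 melanotrophs (114 UMIs per 1000000), and no UMI in the 59 posterior pituitary cells. *Kcnk3*, the leading member of G, had no UMI in melanotrophs and 1 in posterior pituitary cells. *Kcna2* had 30 UMIs in 25 of the 59 posterior pituitary cells (45.1 per 1000000) and *Kcnk12* had 23 in 20 of the 60 melanotrophs (31.7 per 1000000). In the 51 pericytes *Kcnip3* had the most UMIs of any member, 11 in 9 cells, and *Kcnj8* had 4 in 3 cells. These values carry no test.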
